A study of Mus musculus with 13 samples.

Results

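Short hairpin RNAs against Setdb1, which encodes an enzyme that methylates histone H3 at lysine 9 (H3K9), were given to mouse embryonic fibroblasts (MEFs). The genes described here are 10 others that write, read or remove the same mark. They were taken by symbol from the 25965 gene rows of the expression table, and each of the 10 was found and passed the filter on low values. Suv39h1, Suv39h2, Ehmt1, Ehmt2 and Setdb2 encode methyltransferases. Cbx1, Cbx3 and Cbx5 encode the heterochromatin proteins HP1β, HP1γ and HP1α. Kdm3a and Kdm4c encode demethylases. The question was whether any of them was higher where Setdb1 was lower.

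Poly(A) RNA was sequenced in 4 groups of 3 libraries: control hairpin, control hairpin + 5-aza, Setdb1 hairpin, and Setdb1 hairpin + 5-aza. 5-aza is 5-azacytidine, a nucleoside that traps DNA methyltransferases and lowers DNA methylation. The study describes the transduced cells as primary female fibroblasts from mid-gestation embryos, heterozygous for an Xist allele without its A repeat. That allele leaves the other X (marked PGK) as the inactive one. The labels give no genotype per library. In each group replicate 1 carried one hairpin (luciferase, or shSetdb1.6) and replicates A and B another (non-silencing, or shSetdb1.4). The drug was on the cells for 24 h, starting at day 3, and harvest was at day 7. Per the study, cells given Setdb1 hairpins also carried 1 gene-trap allele of Setdb1 and those given the non-silencing hairpin were wild type. The Setdb1 genotype of the luciferase cells is not stated. Hairpin and genotype therefore cannot be told apart, and "Setdb1 hairpin" stands for both below. Nothing in the labels says whether replicates came from separate embryos, so p-values measure the spread between these libraries, which may be technical.

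As background, methyl groups on H3K9 mark silent chromatin. SUV39H1 and SUV39H2 place 3 methyl groups mainly in the repeats beside centromeres, G9a (Ehmt2) and its partner GLP (Ehmt1) place mono- and dimethylation on chromosome arms, and SETDB1 is brought to its targets by KRAB zinc finger proteins through TRIM28. HP1 proteins bind methylated H3K9 through their chromodomain and recruit further silencing factors, SUV39H1 among them. KDM3A removes mono- and dimethylation, and KDM4C removes di- and trimethylation.

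The places where the hairpins pair with Setdb1 are shown first because the reading of every comparison rests on them. The target bases are written 5′ to 3′ as the messenger RNA strand, with the bases that face the seed (guide bases 2 to 8) in capitals.
shSetdb1.4 target: gacagatgactttgCAGACAAa
shSetdb1.6 target: gaaaagcagttctcAAGATCTa
The first lies in exon 16 of 22 of Setdb1 (GRCm38, chr3:95327805-95327826, minus strand, coding bases 2565 to 2586 of 3927). The second lies in exon 5 (chr3:95348003-95348024, coding bases 519 to 540). No transcript of the 10 genes came closer than 6 mismatches of 22 to either target. That closest stretch was in Kdm3a for shSetdb1.4, and the other members differed from the 2 targets at 7 to 10 bases. The 10 genes were not searched for matches to the seed alone, so pairing through the seed was not tested.

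Values are RPM, a read count corrected for the size of the library. The 12 libraries held 36.4 to 51.3 M reads in genes. Fibroblast markers were abundant in every library (Col1a1 at 4750 RPM or more, Vim at 4326 RPM or more), while the defining markers of leukocytes, endothelium and epithelium, Ptprc, Pecam1, Epcam and Cdh1, reached at most 0.319, 0.441, 0.119 and 0.08 RPM. Other genes of those lists were higher, up to 9.85 RPM for Csf1r, 3.53 RPM for Tek and 20.5 RPM for Krt18. Setdb1 was at 46.4, 46.2 and 46.3 RPM under control hairpins and at 12.1, 15.4 and 14.7 RPM under Setdb1 hairpins, a fall of 1.73 on the log2 scale (SE 0.11, limma adjusted p 1.52e-06). In treated cells the values were 44.0, 42.7 and 43.5 RPM against 10.5, 14.5 and 13.7 RPM. The shSetdb1.6 libraries had the lowest Setdb1, at 26.2% and 24.1% of the matching control mean, and the 4 shSetdb1.4 libraries lay between 31.6% and 33.5%.

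Levels of different genes are compared only per kb of exon, counting every base that lies in any annotated exon of the gene. That length can be far above that of a single transcript. For Cbx1 it was 4273 bases against 1251 in its reference transcript, and for Ehmt2 5489 against 4026. The order below holds for this choice of length, and the order by transcript length was not tested. Over the 12 libraries Ehmt2 was the most abundant of the 10, at a mean level of 23.2 RPM per kb. Cbx5 (16.3 RPM per kb), Cbx1 (10.8), Ehmt1 (7.36), Kdm3a (6.04), Kdm4c (5.16), Suv39h1 (4.06), Setdb2 (2.01), Suv39h2 (1.25) and Cbx3 (1.17) followed. The ranges of neighbours in this order did not overlap, except for Suv39h2 with Cbx3. The place of Cbx3 is that of its own row, which held 10.3% to 13.6% of the reads of Cbx3 and its processed copies, described below. In control hairpin cells Setdb1 was at 6.75 RPM per kb, between Ehmt1 and Kdm3a. The reads per gene and library ran from 198 for Suv39h2 to 8738 for Cbx5, so the values of Suv39h2, Cbx3 and Setdb2 carry the largest counting error.

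**Figure D1:**
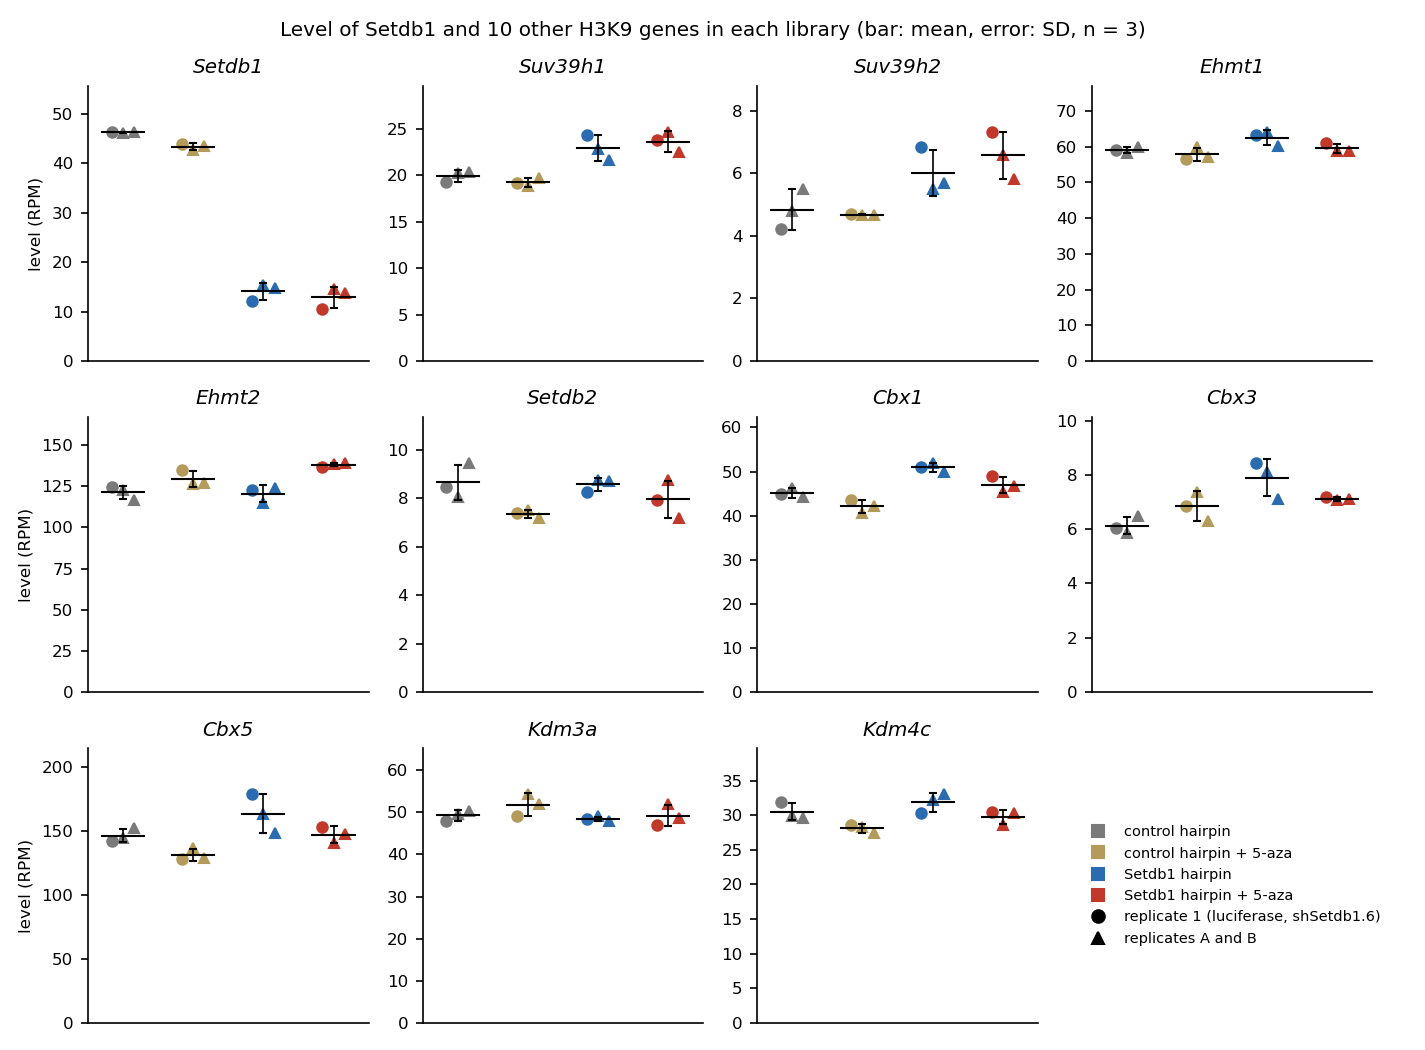
Level of Setdb1 and the 10 genes in RPM (y axes, from 0) in each of the 12 libraries, by group, with replicate 1 as circles and replicates A and B as triangles. Bars are means and error bars SD over 3 libraries. Setdb1 falls from 46.25 to 14.06 RPM, while the widest range among the other genes relative to its level is that of Suv39h2, from 4.21 to 7.33 RPM.

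Without 5-aza, 3 of the 10 genes were higher with the Setdb1 hairpins and none was lower. Cbx3, Cbx1 and Suv39h1 rose by 1.13- to 1.29-fold. Over all 13134 genes tested, 9.01% were called higher and 3.4% lower. The median log2 difference was 0.12 over the 10 genes and 0.03 over all genes. With 5-aza in both groups, Suv39h1, Suv39h2 and Cbx1 were higher, by 1.12- to 1.399-fold, and again none was lower. In that comparison 14.5% of all genes were called higher and 5.37% lower, and the medians were 0.10 and 0.05. No label names a culture, so libraries of the same hairpin and replicate, without and with 5-aza, were taken as the same culture. Averaging the libraries without and with 5-aza of each culture left 3 cultures against 3. Suv39h1, Suv39h2, Cbx1 and Cbx3 were then called higher, against 12.8% of all genes, and none lower, against 4.63%. Over culture means the call of Cbx3 by its own row was lost on leaving out any of the 6 cultures (adjusted p 0.0505 to 0.121) and with median centring (0.0741) or quantile normalization (0.108), and that of Suv39h2 on leaving out Luc (0.0612), Nons A (0.0866), Nons B (0.0592) or shSetdb1.6 (0.0619). Cbx1 lost it without Nons A (0.0554) or Nons B (0.0616). In 5 of the 10 genes without 5-aza, and in 5 with it, every Setdb1 hairpin library was above every control library, which 24% and 24.6% of all genes also were. The values of RPM as deposited place 72.6% of the called genes on the higher side without 5-aza, and centring each library on its median places 48.0% there. With 5-aza these shares were 73.0% and 48.7%. Without the luciferase and shSetdb1.6 libraries (2 against 2) limma called none of the 10 in untreated cells, although Cbx1 (0.17, adjusted p 0.134), Cbx3 (0.30, adjusted p 0.195) and Kdm4c (0.13, adjusted p 0.242) had an unadjusted p under 0.05. With 5-aza that step kept Suv39h1 and Suv39h2 and lost Cbx1 (adjusted p 0.0891).

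**Figure D2:**
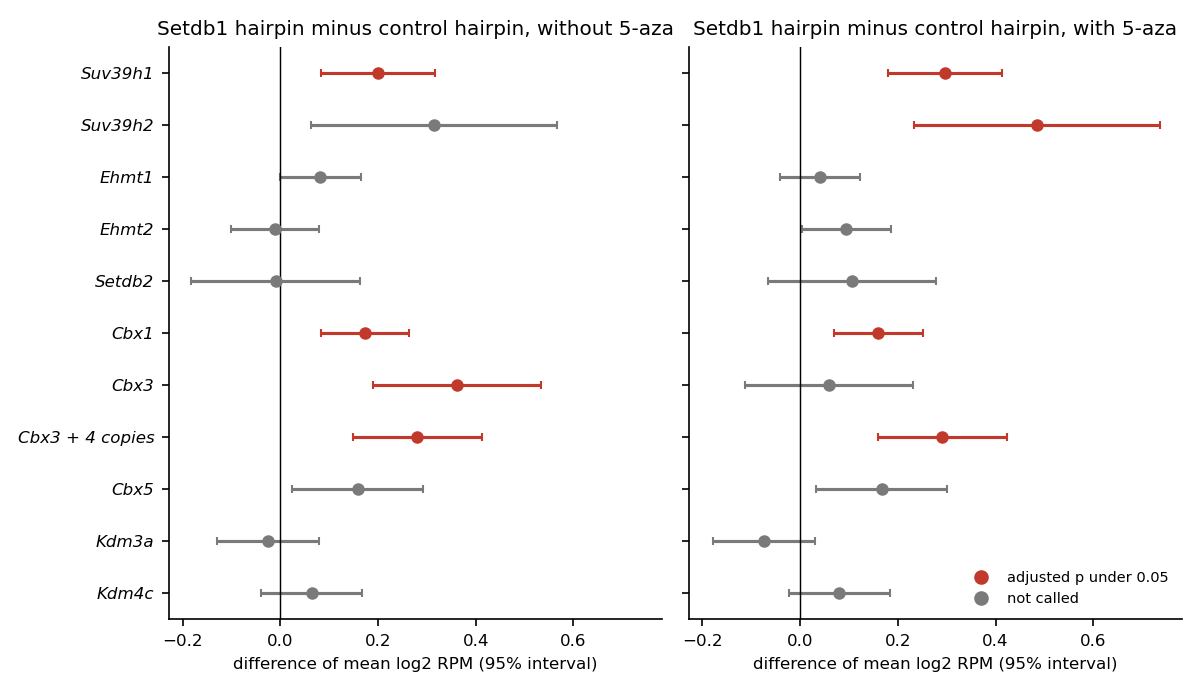
Difference of mean log2 RPM, Setdb1 hairpin minus control hairpin (x axes), for the 10 genes and for Cbx3 with its processed copies, without 5-aza (left) and with 5-aza (right). Points are limma estimates with 95% intervals, red where the adjusted p is under 0.05. Suv39h1, Cbx1 and the summed Cbx3 are red on both sides, and no interval lies below 0.

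Suv39h1 encodes an enzyme that adds 3 methyl groups in pericentric chromatin and is the only one of the 10 on the X chromosome (ENSMUSG00000039231, chrX:8061171-8074760, minus strand). It was at 19.2, 20.2 and 20.4 RPM under control hairpins and at 24.3, 22.8 and 21.6 RPM under Setdb1 hairpins. The groups did not overlap, and the shSetdb1.6 library was the highest, which it was not among the treated libraries. The log2 difference was 0.20 (SE 0.053, adjusted p 0.0308). With 5-aza Suv39h1 was at 19.2, 18.8 and 19.6 RPM against 23.7, 24.7 and 22.4 RPM, a log2 difference of 0.30 (SE 0.053, adjusted p 0.00298), or 1.23-fold (95% interval 1.13 to 1.33). The call with 5-aza held under every alternative tried, with adjusted p from 0.0023 to 0.015 when single libraries were left out. The call without 5-aza was lost for Suv39h1 with median centring (adjusted p 0.0833), quantile normalization (0.0938), only the groups compared in the fit (0.0547) or a replicate block by letter (0.0936), without the luciferase and shSetdb1.6 libraries (0.364), and on leaving out control hairpin replicate 1 (0.117), A (0.0709) or B (0.0547), or Setdb1 hairpin replicate 1 (0.133) or A (0.0703). Of the 431 genes tested on chromosome X, 8.35% were called higher without 5-aza and 13.2% with it, and their median log2 differences were 0.03 and 0.03, so Suv39h1 was above the typical gene of its chromosome. Its exons share 767 bases (14.6%) with exons of Gm14820 on the opposite strand, and whether the counting used the strand is not stated. Gm14820 was also higher with the Setdb1 hairpins. It was at 1.83 to 1.87 RPM under control and 1.89 to 2.31 RPM under Setdb1 hairpins, and at 1.57 to 1.84 and 2.30 to 2.57 RPM with 5-aza. The part of such reads in the difference of Suv39h1 was not tested.

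Suv39h2, the paralog with the same activity, is on chromosome 2 (ENSMUSG00000026646, chr2:3455815-3475031). Its exons share 357 bases (8.1%) with those of Dclre1c on the opposite strand, whose level of 5.45 to 6.46 RPM was close to its own. It was at 4.21, 4.81 and 5.50 RPM under control hairpins and at 6.85, 5.51 and 5.68 RPM under Setdb1 hairpins. The groups touched without overlapping, and the log2 difference of 0.31 (SE 0.12) had an adjusted p of 0.0976. In treated cells the values were 4.69, 4.67 and 4.67 RPM against 7.33, 6.58 and 5.81 RPM. The difference of 0.48 (SE 0.12, adjusted p 0.0127) was the largest of the 10 genes in fold, at 1.399-fold (95% interval 1.18 to 1.67), and lay at percentile 95 of all log2 differences. Leaving out Setdb1 hairpin + 5-aza replicate 1, which is the shSetdb1.6 library, gave an adjusted p of 0.0646 for Suv39h2. In both conditions that hairpin gave the highest value, 141.5% and 156.6% of the matching control mean, against 113.9% to 140.7% in the shSetdb1.4 libraries.

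Beside both Suv39h genes, proliferation genes moved in the same direction. A list of 12 such genes (among them Mki67, Top2a, Ccnb1 and Plk1) was chosen with earlier results of these data known. Beside 9.01% and 14.5% of all genes called higher with the Setdb1 hairpins without and with 5-aza, 9 and 12 of these 12 were. Their median log2 differences were 0.40 and 0.62, and Plk1, a mitotic kinase, rose by 0.50 (SE 0.085, adjusted p 0.003) and 0.80 (SE 0.085, adjusted p 0.0001). Their summed level was 608.8 to 676.1 RPM under control hairpins and 787.3 to 967.9 RPM under Setdb1 hairpins. With 5-aza the ranges were 447.9 to 511.0 RPM and 651.8 to 812.5 RPM. Neither pair of ranges overlapped. The 4 epithelial markers summed to 2.64 to 3.16 RPM under control hairpins and 9.62 to 10.5 RPM under Setdb1 hairpins, or 8.57 to 10.6 and 20.8 to 23.6 RPM with 5-aza, through Krt18 and Krt8. The part of either list in the members' differences was not tested, and in bulk RNA more cells of a kind and more RNA per cell cannot be told apart.

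The G9a and GLP genes stayed close to their control levels. Ehmt2 was at 124.5, 122.4 and 116.8 RPM under control hairpins and at 122.4, 114.6 and 124.2 RPM under Setdb1 hairpins, with a log2 difference of -0.01 (95% interval -0.10 to 0.08). In treated cells the values were 134.8, 126.5 and 127.0 RPM against 136.9, 138.4 and 139.2 RPM. Every Setdb1 hairpin library was then above every control library, but the difference of 0.09 was not called (adjusted p 0.126). Ehmt1 was at 59.1 ± 0.76 RPM (SD, n = 3) under control hairpins and 62.5 ± 2.05 RPM under Setdb1 hairpins, without overlap, and its difference of 0.08 (95% interval -0.0001 to 0.16) was not called (adjusted p 0.182). With 5-aza the Ehmt1 values were 57.9 ± 1.80 and 59.5 ± 1.27 RPM. Setdb2, the closest relative of Setdb1 among the 10, differed by -0.01 (95% interval -0.18 to 0.16) without 5-aza and by 0.11 (95% interval -0.07 to 0.28) with it. An increase of Setdb2 or Ehmt2 as large as the 1.399-fold of Suv39h2 lies outside both intervals of each gene.

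Of the HP1 genes, Cbx1 gave the tightest values. It was at 44.9, 46.4 and 44.3 RPM under control hairpins and at 51.0, 52.0 and 49.9 RPM under Setdb1 hairpins. All 3 libraries lay above the controls, with a log2 difference of 0.17 (SE 0.042, adjusted p 0.0188). In treated cells the values were 43.5, 40.5 and 42.3 RPM against 49.0, 45.4 and 46.7 RPM, a difference of 0.16 (SE 0.042, adjusted p 0.0192). The calls of Cbx1 were lost on leaving out control hairpin replicate 1 (adjusted p 0.0639) or B (0.0656) or Setdb1 hairpin replicate 1 (0.0663) or A (0.0624), and with 5-aza under median centring (0.0824), with only the groups compared in the fit (0.077) and on leaving out control hairpin + 5-aza replicate A (0.0714) or B (0.056) or, among the treated Setdb1 hairpin libraries, replicate 1 (0.0921) or B (0.0579).

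Cbx5 showed the same direction at a higher level and with more spread. It was at 142.1, 144.3 and 151.8 RPM under control hairpins and at 178.8, 162.9 and 148.5 RPM under Setdb1 hairpins, where replicate B fell inside the control range. The log2 difference was 0.16 (SE 0.062, adjusted p 0.117), and without that replicate Cbx5 was called (0.23, adjusted p 0.028). In treated cells the values were 127.6, 136.2 and 129.0 RPM against 153.3, 140.1 and 147.7 RPM, without overlap (0.17, adjusted p 0.0767). Over culture means Cbx5 differed by 0.16 (adjusted p 0.0537).

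The row of Cbx3 cannot be read on its own. HP1γ has processed copies, messenger RNAs copied back into the genome, and the table holds rows for 4 of them under other symbols: Cbx3-ps6 (chr14:73955000-73955551, listed as Gm6984), Cbx3-ps7 (chr1:58646688-58647239, Gm10068), Cbx3-ps4 (chr13:66864524-66865072, Gm5196) and Cbx3-ps1 (chr13:65894215-65894759, Gm6917). Over the 552 coding bases Cbx3-ps6 differs from Cbx3 at 1 base and Cbx3-ps7 at 2. Each of 46 windows of 100 bases along the Cbx3 coding sequence lay within 2 differences of a copy, against none for Cbx1 and Cbx5. The stretch that holds those differences, coding bases 360 to 419, is shown because, within the coding part, a read from Cbx3 differs from a read of the closest copies only at such bases. The rest of the 1889-base transcript is not in these comparisons, and over the whole transcript 26.6% of words of 31 bases were shared with other genes. Capitals mark differences from Cbx3.
Cbx3: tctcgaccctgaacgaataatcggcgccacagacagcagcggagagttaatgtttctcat
Cbx3-ps6: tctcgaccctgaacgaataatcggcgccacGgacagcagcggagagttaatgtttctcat
Cbx3-ps7: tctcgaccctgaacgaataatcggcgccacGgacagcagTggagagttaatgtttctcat
Cbx3-ps4: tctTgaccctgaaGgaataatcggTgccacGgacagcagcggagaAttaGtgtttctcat
These sequences are from GENCODE transcripts on GRCm38.

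The Cbx3 row held 285 to 419 reads per library, and the Cbx3-ps6 row 1753 to 2806. Of the reads of Cbx3 and the 4 copies together, the Cbx3 row held 10.3% to 13.6%. By its own row, Cbx3 was at 6.06, 5.87 and 6.47 RPM under control hairpins and at 8.44, 8.12 and 7.12 RPM under Setdb1 hairpins, a log2 difference of 0.36 (SE 0.079, adjusted p 0.0122). In treated cells the values were 6.86, 7.39 and 6.29 RPM against 7.19, 7.06 and 7.11 RPM, which overlapped (0.06, adjusted p 0.622). Summed with its copies, Cbx3 was at 52.0, 56.7 and 60.8 RPM under control hairpins and at 73.1, 68.2 and 64.6 RPM under Setdb1 hairpins. The summed values with 5-aza were 54.4, 54.4 and 54.8 RPM against 69.6, 63.3 and 67.5 RPM.

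The sum gave nearly the same difference in both conditions, 0.28 in untreated cells (SE 0.061, adjusted p 0.0118) and 0.29 in treated cells (SE 0.061, adjusted p 0.00669), or 0.29 over culture means (adjusted p 0.00844). The groups did not overlap in either condition. Summing was chosen after the values of Cbx3 were seen. The call of the sum without 5-aza was lost on leaving out Setdb1 hairpin replicate 1 (adjusted p 0.0602) and without the luciferase and shSetdb1.6 libraries together (0.18, adjusted p 0.156), and held without each of the other 11 libraries. The call of the Cbx3 row was lost without control hairpin replicate A (adjusted p 0.0514) or Setdb1 hairpin replicate 1 (0.0614). Among the copies, Cbx3-ps6 (row Gm6984) rose in both conditions, by 0.27 (adjusted p 0.0176) and 0.38 (adjusted p 0.00174). Cbx3-ps7 (row Gm10068) rose without 5-aza by 0.58 (adjusted p 0.00388) and differed by -0.16 with it (adjusted p 0.293). How many of the reads placed on a copy were transcribed from Cbx3 cannot be told from the table.

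**Figure D3:**
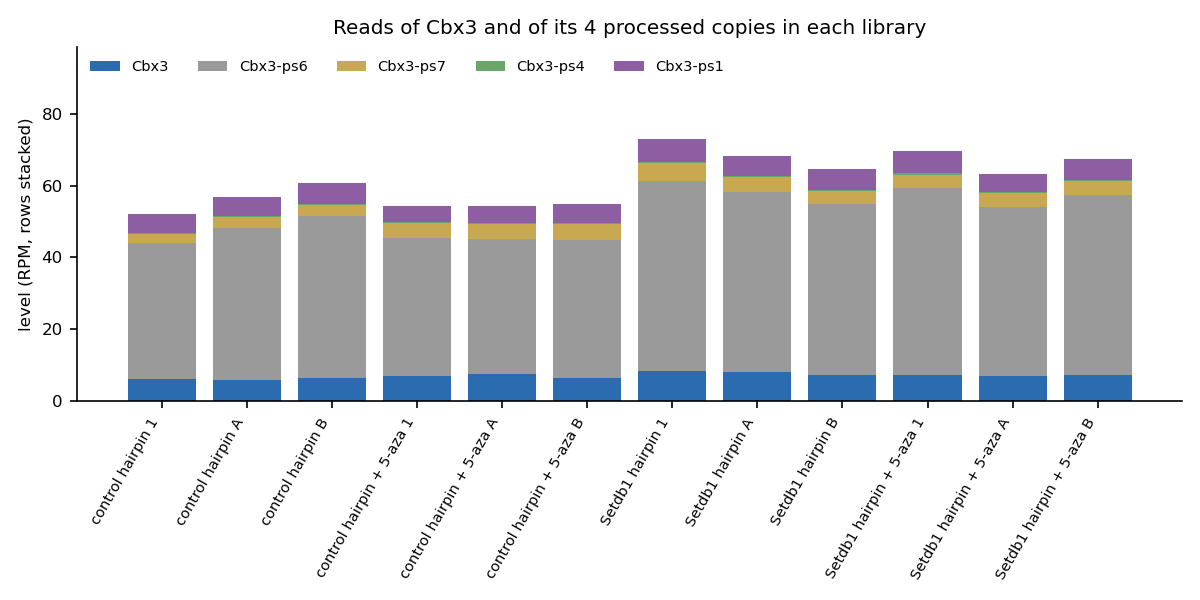
Level in RPM (y axis, stacked from 0) of the Cbx3 row and of its 4 processed copies in each of the 12 libraries. Cbx3-ps6 is the tallest part of each stack, and the 6 stacks with Setdb1 hairpins (63.3 to 73.1 RPM) are all above the 6 controls (52.0 to 60.8 RPM).

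Both demethylase genes stayed near their control levels. Kdm3a was at 49.3 ± 1.27 RPM under control hairpins and 48.4 ± 0.54 RPM under Setdb1 hairpins, and at 51.8 ± 2.66 and 49.2 ± 2.57 RPM with 5-aza. Its log2 differences were -0.02 (95% interval -0.13 to 0.08) and -0.07 (95% interval -0.18 to 0.03). Kdm4c was at 30.5 ± 1.24 and 31.9 ± 1.404 RPM, and at 28.1 ± 0.65 and 29.8 ± 1.002 RPM with 5-aza. The intervals of its differences ran from -0.04 to 0.17 and from -0.02 to 0.18. The groups of each gene overlapped in both conditions.

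Summed per kb of exon, the gain of the other methyltransferases was smaller than the loss of Setdb1. The 5 others together were at 36.4 ± 0.27 RPM per kb with control hairpins and 37.5 ± 0.89 RPM per kb with Setdb1 hairpins, 1.09 more, while Setdb1 fell by 4.70 RPM per kb. With 5-aza they were at 37.2 ± 0.71 and 40.4 ± 0.44 RPM per kb, 3.21 more, while Setdb1 fell by 4.445. Of that gain, Ehmt2 gave 1.59 RPM per kb (SE 0.50), Suv39h1 0.84 (SE 0.13) and Suv39h2 0.43 (SE 0.10). The difference of Ehmt2 between hairpins with 5-aza was not called by limma, while those of Suv39h1 and Suv39h2 were. Setdb1 and the 5 others together were at 43.1 ± 0.28 and 39.5 ± 0.67 RPM per kb, and at 43.6 ± 0.78 and 42.3 ± 0.52 RPM per kb with 5-aza. The 3 HP1 genes summed to 27.8 ± 0.50 and 31.4 ± 1.94 RPM per kb, a gain of 12.9% of the control mean. With 5-aza they summed to 25.5 ± 0.29 and 28.5 ± 1.17 RPM per kb, a gain of 11.7%. Cbx3 entered these sums by its own row. With its 4 copies added, and in RPM not divided by length, the gains were 14.2% without and 14.6% with 5-aza. No test was run on the sums, and RNA levels do not give the amount of enzyme.

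**Figure D4:**
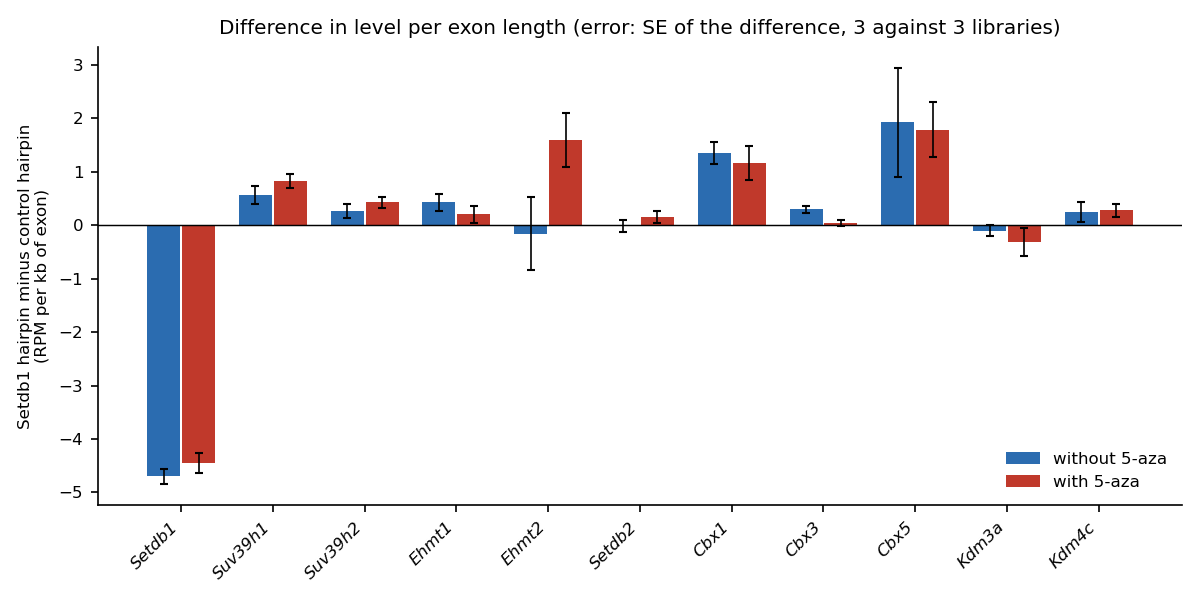
Setdb1 hairpin minus control hairpin in RPM per kb of exon (y axis) for Setdb1 and the 10 genes, without 5-aza (blue) and with 5-aza (red). Error bars are SE of the difference of 3 against 3 libraries. Cbx3 is its own row, without its copies. The Setdb1 bars are at -4.70 and -4.445, and the largest gain of any other gene is 1.93, in Cbx5.

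In the comparison of 5-aza with none in control hairpin cells, none of the 10 was called by limma, against 18.8% of all genes tested, while 5 had an unadjusted p under 0.05, and limma voom on recovered reads also called none. Setdb2 was at 8.46, 8.06 and 9.47 RPM without and 7.38, 7.51 and 7.20 RPM with 5-aza, a difference of -0.23 (SE 0.079, adjusted p 0.0604). Cbx5 differed by -0.16 (adjusted p 0.0925), Cbx1 by -0.10 (adjusted p 0.103) and Kdm4c by -0.11 (adjusted p 0.107). In control cells 4 of the 10 genes had every 5-aza library below every untreated one, as 12.7% of all genes had, and 1 (Ehmt2) had every 5-aza library above, as 24.9% had. Under median centring Cbx1, Cbx5, Kdm4c and Setdb2 were called lower, and with a replicate block by culture Cbx5 (adjusted p 0.0308) and Setdb2 (0.0427) were.

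In Setdb1 hairpin cells 1 of the 10 genes was called higher, against 21.4% of all genes, and none lower, against 7.51%. With median centring Cbx1, Cbx5, Ehmt1 and Kdm4c were called lower, and with quantile normalization Cbx1 and Kdm4c. Ehmt2 went from 122.4, 114.6 and 124.2 RPM to 136.9, 138.4 and 139.2 RPM, a difference of 0.20 (SE 0.042, adjusted p 0.00535) that held under every alternative tried. It was higher with 5-aza in each of the 6 cultures. Cbx1, Cbx5 and Setdb2 were lower with 5-aza in each of the 6. The fit with a replicate block by culture, a grouping that the labels do not state, is given beside these values. It called Cbx5 lower in Setdb1 hairpin cells (-0.15, adjusted p 0.0298, against 0.0875 without the block), and likewise Setdb1 itself (-0.13, adjusted p 0.0366, against 0.388). No member was called for the interaction of hairpin and 5-aza, as 0.388% of all genes were. Cbx3 by its own row had an interaction of -0.30 (unadjusted p 0.0191, adjusted p 0.794), the only one of the 10 with an unadjusted p under 0.05, also with limma voom. Summed with its copies, Cbx3 had an interaction of 0.01 (SE 0.086).

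**Figure D5:**
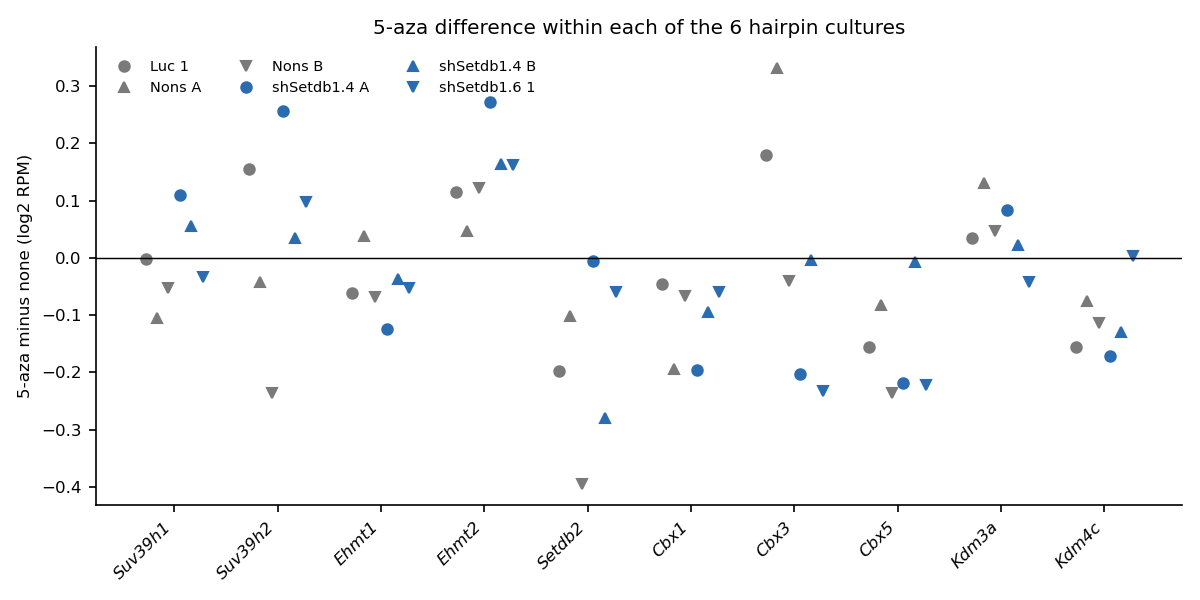
5-aza minus none in log2 RPM (y axis) for the 10 genes within each of the 6 hairpin cultures, control hairpins in grey and Setdb1 hairpins in blue. Ehmt2 is above 0 in all 6 cultures, and Cbx1, Cbx5 and Setdb2 are below 0 in all 6.

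Other genes of the same pathway, from lists chosen with earlier results known, gave the following counts, beside 9.01% of all genes called higher without 5-aza and 14.5% with it. Of 3 tested genes for further reported H3K9 methyltransferases, 2 were higher in both conditions: Prdm16 (0.57 and 0.61, adjusted p 0.000667 and 0.000342) and Mecom (0.39 and 0.22, adjusted p 0.00288 and 0.0392). Both are better known as transcription factors. Of 8 other demethylase genes tested, 1 was higher in both: Kdm1a, which encodes LSD1 (0.27 and 0.28, adjusted p 0.00297 and 0.00151). None of the 4 partners of G9a and GLP was called. Of 8 genes that bind HP1 or act after it, 3 were higher without 5-aza and 4 with it. Trim28, the corepressor that recruits SETDB1, rose by 0.19 (adjusted p 0.0144) and 0.24 (adjusted p 0.00255), and Smchd1, a factor of the inactive X, by 0.24 in both (adjusted p 0.00498 and 0.00353). Lbr, a nuclear envelope receptor that binds HP1, rose with 5-aza by 0.41 (adjusted p 0.00129). Among 5 Polycomb chromobox genes, relatives of the HP1 genes that bind H3K27 methylation, Cbx6 was lower in both (-0.28 and -0.23, adjusted p 0.00171 and 0.00401) and Cbx2 higher with 5-aza (0.34, adjusted p 0.0257).

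The genes whose log2 RPM followed each member most closely over the 12 libraries are given as a description, since the libraries fall into groups. Each was picked as the highest r among the 13134 genes tested, so a high r is no support for a link. For Suv39h1 it was Prdm16 (Pearson r 0.96), for Suv39h2 Gm10093 (0.95), for Ehmt1 Rnf219 (0.94), for Ehmt2 Iqce (0.98) and for Setdb2 Tgif2 (0.89). For Cbx1 it was Wdr75 (0.98), for Cbx3 Neurl4 (0.90), for Cbx5 Cep192 (0.97), for Kdm3a Tmem198b (0.96) and for Kdm4c Camsap1 (0.94).

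The promoters of the 10 genes (RefSeq, GRCm38.p6, 250 bases before to 50 after each start) were searched on both strands for the E2F words TTTCCCGC, TTTCGCGC, TTTGCCGC and TTTGGCGC, a choice made after the proliferation genes were seen to differ. Of all genes with a promoter in the table, 2.60% held such a word. Among the 10 genes, Cbx3 and Suv39h1 held 1 each, shown here with the word in capitals, on the strand of the gene.
Cbx3: tggagccccgcTTTGGCGCgctccgagacg
Suv39h1: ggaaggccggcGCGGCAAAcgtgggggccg
The first is at chr6:51470437-51470466 and the word lies at -168 to -161 from a Cbx3 start site. The second is at chrX:8074407-8074436, and the word, read on the opposite strand, lies at -64 to -57 from the downstream one of the start sites of Suv39h1. A match says only that these letters are there.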

How the data were processed

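Poly(A) RNA of 13 libraries was sequenced by the authors as 100-base reads. The deposited table holds log2 RPM, and per the labels the build was mm10. The aligner and the use of strand for this table are not given in the sources used here. 100% of values were whole multiples of 1 read, at a relative tolerance of 0.0001, so reads were recovered, and 1 read was worth 0.017 to 0.0239 RPM. No molecular identifiers were given, so reads may hold PCR copies.

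The 13134 genes that reached 1 RPM in 3 or more of the 12 libraries entered a single limma 3.58.1 model of the 4 groups (R 4.3.3, eBayes with trend). Tests were two-sided, with Benjamini-Hochberg adjustment over all genes tested and a call at adjusted p under 0.05. Errors of RPM are SD, n = 3. Exact permutation tests of 3 against 3 cannot go below 0.1, so non-overlap is given instead. RPM per kb used the union of all exons of a gene in GENCODE M21, where 96.4% of identifiers were found. Shared sequence was counted in words of 31 bases, and copies shared at least 100 of them with Cbx3. Figures used Python 3.11.15 and matplotlib 3.10.9.

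The genes named are the 10 members and Setdb1, list genes called in that contrast (at most 4, by adjusted p) and the gene most correlated with each member. Members and lists were chosen with earlier results of these data known. The remaining library, with 5-aza and no named hairpin, is in no group. Pairing was checked by the correlation of deviations from group means. For libraries of 1 culture it was 0.472, 0.634 and 0.413 in Setdb1 hairpin cells, and 0.586, 0.149 and 0.0999 in control cells. For shared letters, which join different cultures, it ran from -0.47 to 0.686. Each group mean mixes the hairpin of replicate 1 with that of replicates A and B. Hairpin and culture therefore cannot be told apart here, and the check cannot show pairing by culture.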

Additional observations from a re-analysis of the deposited data

Results flagged for a closer look

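A library treated with 5-aza whose label names no hairpin, and which entered no comparison, held 8 of the 10 genes above the highest of the 3 control hairpin + 5-aza libraries, as 37.6% of all genes tested were. They were Suv39h1 at 21.7 RPM, Suv39h2 at 8.29 RPM, Ehmt1 at 64.9 RPM, Ehmt2 at 137.7 RPM, Setdb2 at 8.93 RPM, Cbx1 at 48.5 RPM, Cbx3 at 7.75 RPM and Cbx5 at 151.5 RPM. Its Suv39h2 value was above that of each Setdb1 hairpin library (highest 7.33 RPM), although its Setdb1 was at 47.0 RPM. It is a single library of 17.4 M reads in genes, so no spread can be given. Its library name holds PGK, the name of the polymorphic X. The study found its PGK variants in a PGK sample, and kept only those where that sample lacked the reference allele. The sources used here do not say whether this library is that sample, and give no genotype for it. A difference in strain or genotype from the other libraries therefore cannot be told apart from the lack of a hairpin.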

How the results depend on the processing

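Of the results of the 10 genes under the alternatives tried, 1110 kept direction and call, 40 lost the call, 29 gained one and 37 changed sign without being called in either fit. Without 5-aza, leaving out the luciferase and shSetdb1.6 libraries left 470 genes called (1630 with all libraries) and 0 members. The same step left 1403 genes with 5-aza (2609), 2306 for 5-aza in Setdb1 hairpin cells (3792), 1532 for 5-aza in control cells (2471) and 8 for the interaction (51). It left fewer libraries and also took out the hairpin with the lowest Setdb1. The cause of the lower counts was not tested. Fitting only the groups compared gave 1548 genes with 5-aza, and a minimum of 5 RPM gave 19 for the interaction.

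With a replicate block by culture, 3902 genes were called for 5-aza in control cells and 169 for the interaction. The members called for 5-aza in control cells numbered 4 with median centring, 2 with quantile normalization, 2 with the block (Cbx5 and Setdb2, lower) and 1 with only the groups compared. In Setdb1 hairpin cells they numbered 5, 3 and 2 under the first 3 of these, and 2 with a minimum of 5 RPM. A block by replicate letter lost Suv39h1 without 5-aza (adjusted p 0.0936). Between control and Setdb1 hairpin libraries lettered A, the correlation of deviations from group means ran from 0.186 to 0.686. Between those lettered B it ran from -0.47 to -0.0197.

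Leaving out single libraries gave 721 to 1832 genes and 0 to 4 members without 5-aza, 1279 to 3428 and 1 to 4 with it, 1260 to 2718 and 0 to 1 for 5-aza in control cells, 2191 to 4193 and 1 to 2 in Setdb1 hairpin cells, and 29 to 43 and 0 for the interaction. Over culture means (2284 genes, 4 members), leaving out 1 culture gave 955 genes and 1 member (Nons B), 1053 and 1 (Nons A), 1137 and 3 (shSetdb1.4 B), 1170 and 2 (shSetdb1.6), 1945 and 2 (Luc) and 3058 and 4 (shSetdb1.4 A). Called higher genes made up 71.6% for 5-aza in control cells and 74% in Setdb1 hairpin cells, or 49% and 52.3% with median centring.

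Suv39h2 and Cbx3 rest on 198 to 419 reads a library, and 3 libraries a group cannot give an exact permutation p under 0.1.

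The uncalled log2 differences that changed sign were these. Median centring and quantile normalization gave -0.0013 and -0.0044 for Cbx3 and -0.0195 and -0.0036 for Ehmt1 with 5-aza, -0.0061 and -0.0114 for Setdb2 over culture means, and -0.0354 and -0.0224 for Kdm3a and -0.0128 and -0.0092 for Suv39h1 under 5-aza in Setdb1 hairpin cells. Median centring alone gave -0.0128 for Ehmt2 over culture means and -0.0037 for the interaction of Cbx5, and quantile normalization -0.0181 for that of Kdm4c. Without 5-aza, the block by letter gave 0.0112 for Ehmt2, and Setdb2 was at 0.0025 with limma voom and 0.0016 without the luciferase and shSetdb1.6 libraries. That last step gave interactions of -0.0550 for Kdm4c and 0.0118 for Setdb1. Summed with its copies, Cbx3 was at -0.0488 under 5-aza in control cells and 0.0109 for the interaction. Leaving out single libraries gave ranges across 0 for Ehmt2 (-0.0375 to 0.0246) and Setdb2 (-0.0599 to 0.0566) without 5-aza, Suv39h2 under 5-aza in control cells (-0.1371 to 0.0563), Kdm3a (-0.0186 to 0.0554) and Setdb1 (-0.2343 to 0.0141) under 5-aza in Setdb1 hairpin cells, and the interactions of Cbx1 (-0.0434 to 0.0115), Cbx5 (-0.0584 to 0.0755), Kdm4c (-0.0189 to 0.0445) and Setdb1 (-0.1412 to 0.1072).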

Other observations

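In the library with no named hairpin, Kdm3a was at 51.8 RPM and Kdm4c at 27.4 RPM. The 12 proliferation genes summed to 690.3 RPM there, above the control hairpin + 5-aza libraries (447.9 to 511.0 RPM) and inside the range with Setdb1 hairpin + 5-aza (651.8 to 812.5 RPM). Cbx3 and its 4 copies summed to 67.2 RPM.

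Among the markers of other cell types, Krt18, a keratin of simple epithelia, was higher with the Setdb1 hairpins (1.74 without and 1.14 with 5-aza, adjusted p 5.22e-07 and 1.91e-05). Its partner Krt8 was higher with 5-aza (1.395, adjusted p 0.00505) and, without it, was called higher from control libraries near 0 reads, so no fold is given. Epcam and Cdh1 stayed at 7 reads or fewer. Of the 2 macrophage and 2 endothelial markers tested, none was called between hairpins. Des, a muscle intermediate filament, was higher without 5-aza (0.53, adjusted p 0.00763).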
